A study of Arabidopsis thaliana with 144 samples.

Results

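The flavonoid and anthocyanin regulators of Arabidopsis were followed across 36 groups of whole seedlings. They were taken from the table of gene counts by their locus identifiers, as 10 of the 27206 genes listed: MYB75 (AT1G56650), MYB90 (AT1G66390), MYB113 (AT1G66370), TT8 (AT4G09820), GL3 (AT5G41315), EGL3 (AT1G63650), MYBL2 (AT1G71030), MYB12 (AT2G47460), MYB11 (AT3G62610) and MYB111 (AT5G49330). The seedlings were of the mutant phf1, of the double mutant phr1 phl1 or of the wild type Col-0. PHR1 and PHL1, both MYB transcription factors, turn on much of the response to starvation for phosphate (Pi), and PHF1 lets Pi transporters leave the endoplasmic reticulum. The labels name no alleles and give a single line for each mutant. Seedlings were first kept for 7 days on 5 µM Pi (-P), on 1 mM phosphite (+Phi), a relative of Pi that plants do not metabolise, or on 1 mM Pi (+P). They then spent 12 days on medium with little Pi (50 µM, called low Pi) or ample Pi (625 µM, called high Pi), with a synthetic community of bacteria (SynCom) or without bacteria. Each of the 36 combinations had 4 libraries, 2 from each of the independent experiments A and B, which gives 12 libraries for each of the 12 conditions of genotype, Pi and bacteria when the pre-treatments are pooled.

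Flavonoids are made from phenylpropanoids by chalcone synthase and the early enzymes behind it, after which the pathway divides into flavonols and anthocyanins. The late, anthocyanin-specific genes are switched on by complexes of an R2R3-MYB protein, a bHLH protein and the WD40 protein TTG1. MYB75 (PAP1), MYB90 (PAP2) and MYB113 are the MYB partners, and TT8, GL3 and EGL3 the bHLH partners. GL3 and EGL3 also act with other MYB proteins in the fate of trichomes and root hairs. MYBL2 is a MYB protein with a single repeat that represses these complexes, and MYB12, MYB11 and MYB111 switch on the early flavonol genes without a bHLH partner. Red anthocyanin colour is a classical sign of Pi starvation in leaves, and MYB75 is among the genes induced by it.

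MYB75, MYB90 and MYB113 share a site that is shown because a common regulator is known to act on it. TAS4, a precursor of small interfering RNAs, yields a small RNA directed against these MYB genes. A window of 21 bases of TAS4 was compared, as its reverse complement, with each gene, and capitals mark bases that do not match. The sequences are from RefSeq, assembly TAIR10.1, written 5′ to 3′. The TAS4 window lies at chr3:9417736-9417756 and is given on the plus strand, opposite to the TAS4 gene.
TAS4 window: gtgaaggatcgaggtcgaggc
MYB75: gcctcgacctcgatccttcac
MYB90: gcctcgacctcgatccttcTc
MYB113: gcctcgGcctcgatccttcTc
The MYB75 site, at chr1:21234021-21234041 on the minus strand, matched with 0 mismatches. The MYB90 site, at chr1:24765073-24765093 on the plus strand, had 1 mismatch, and the MYB113 site, at chr1:24754286-24754306 on the plus strand, had 2. All 3 sites lie in coding sequence. The TAS4 transcript itself was not analysed here.

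The promoters of MYB75, MYB90 and MYB111 are shown because MYB75 and MYB90 changed most among these genes and because MYB111 alone among the 10 held the element to which PHR1 binds. Each is the 250 bases before the annotated start (RefSeq, TAIR10.1), with capitals on matches to P1BS, the G-box or the MYB core named below.
MYB75: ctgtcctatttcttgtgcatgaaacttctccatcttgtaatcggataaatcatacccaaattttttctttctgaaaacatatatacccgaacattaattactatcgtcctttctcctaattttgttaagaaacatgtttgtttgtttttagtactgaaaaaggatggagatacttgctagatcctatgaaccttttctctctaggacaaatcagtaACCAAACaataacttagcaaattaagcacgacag
MYB90: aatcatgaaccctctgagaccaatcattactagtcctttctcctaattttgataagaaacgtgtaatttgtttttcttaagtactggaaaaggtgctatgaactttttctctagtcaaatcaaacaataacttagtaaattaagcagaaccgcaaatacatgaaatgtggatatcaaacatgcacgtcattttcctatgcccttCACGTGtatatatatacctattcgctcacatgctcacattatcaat
MYB111: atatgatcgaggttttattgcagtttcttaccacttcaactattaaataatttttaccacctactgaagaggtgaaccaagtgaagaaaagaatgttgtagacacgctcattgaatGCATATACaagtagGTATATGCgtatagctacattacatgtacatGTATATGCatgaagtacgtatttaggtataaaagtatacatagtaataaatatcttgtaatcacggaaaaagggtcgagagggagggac
These are chr1:21235293-21235542 on the minus strand for MYB75, chr1:24763691-24763940 on the plus strand for MYB90 and chr5:20001573-20001822 on the minus strand for MYB111. The capitals in the MYB75 promoter are ACCNAAC, a MYB core whose first base lies 34 bases before the start and which occurs in 14.5% of 27443 promoters of this length. In the MYB90 promoter they are the G-box CACGTG, 46 bases before the start, which 6.49% of promoters hold. In the MYB111 promoter they are 3 copies of P1BS, GNATATNC, at 134, 120 and 89 bases, an element held by 5.46% of promoters. Both strands were searched. The other G-box was in the MYB12 promoter, at 118 bases, and CANNTG, the bHLH motif that includes the G-box, was in 55.3% of all promoters. Matches to CANNTG outside a G-box are left in lower case, at 20 bases in the MYB90 promoter and 173 bases in the MYB111 promoter. A match is a description of these letters and no evidence of binding.

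MYB113 and MYB90 are near neighbours on chromosome 1, at chr1:24753589-24754761 and chr1:24763941-24765541. MYB75 and MYB90 were alike at 84.3% of aligned coding bases, GL3 and EGL3 at 80.5% and MYB12 and MYB11 at 74.1%. Even so, no stretch of 50 bases was shared among MYB75, MYB90 and MYB113, among GL3, EGL3 and TT8, or among MYB12, MYB11 and MYB111. Other pairs of the 10 genes were not compared. MYB90 shared 38 of its 953 stretches of that length with its neighbour MYB114, so a small share of MYB90 reads could belong to either. The libraries were not stranded, so where genes on opposite strands overlap their reads cannot be told apart. This touches MYB11, which overlaps AT3G62615 over 495 bases, and 36 bases of GL3.

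Library totals had a median of 4.1 and a range of 0.72 to 10.7 M counts (M, 1e6), so that 1 count was worth 0.0915 to 1.49 CPM, with a median of 0.25 CPM. CPM are counts divided by the library's total and put on one common scale; they use library sizes scaled by TMM, do not correct for gene length, and are compared between samples, never between genes. PHR1 transcripts had a median of 30.3 CPM in phr1 phl1 and 69.7 CPM in Col-0, PHL1 57.4 CPM in phr1 phl1 and 14.2 CPM in Col-0, and PHF1 14.5 CPM in phf1 and 15.3 CPM in Col-0, so PHR1 and PHL1 counts separate the double mutant while PHF1 counts do not mark phf1. In 4 libraries the PHR1 or PHL1 counts went against the genotype label. In phf1 these were -P replicate A2 and +Phi replicate A1 at high Pi with SynCom, in phr1 phl1 replicate A1 at high Pi with SynCom after +P, and in Col-0 replicate A1 without bacteria at low Pi after +Phi, all by their labels. Counts of calls without them are in the closing section. Summed CPM of 6 photosynthesis genes that mark shoots was lower in A than in B in every one of the 12 conditions by the median, for example 22765 in A and 44923 in B in Col-0 at low Pi with SynCom. None of the 6 shoot and 8 root markers was at 0 in any condition. In whole seedlings, fewer cells of a type and less RNA per cell cannot be told apart.

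Of the 10 genes, 6 passed the filter on low counts that left 19321 genes for testing: MYB75, MYB90, GL3, EGL3, MYBL2 and MYB12. MYBL2 had 89283 counts in all and at least 1 in every library. EGL3 had 1823 counts, MYB75 991, GL3 746, MYB12 589 and MYB90 277. The 4 that did not pass were TT8 with 196 counts in 63 libraries, MYB111 with 393 in 120, MYB113 with 32 in 18 and MYB11 with 18 in 17. Their fold changes come from a fit without the filter. MYB11 had 0 to 3 counts in each of the 12 conditions, under or at the 3 counts taken as the floor, and gives no comparison.

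MYB75, the main MYB activator of anthocyanin genes in seedlings, had its highest levels at low Pi with SynCom in phf1 and Col-0. At low Pi with SynCom its lowest, median and highest levels were 1.27, 4.41 and 17.3 CPM in phf1, 0, 0.676 and 5.80 CPM in phr1 phl1 and 0.678, 4.27 and 11.6 CPM in Col-0. All 12 libraries of phf1 and of Col-0 held counts there, against 8 of 12 in phr1 phl1. Without bacteria at low Pi the levels were 0, 1.46 and 10.7 CPM in phf1, 0, 0.130 and 3.41 CPM in phr1 phl1 and 0, 0.302 and 0.978 CPM in Col-0. At high Pi no median exceeded 0.219 CPM, the level of phr1 phl1 with SynCom, although single libraries of that condition reached 3.67 CPM (-P B2) and 3.48 CPM (+P A1). The +P A1 library is among the 4 whose genotype is in doubt. Ordered by mean, phf1 with SynCom at low Pi (6.02 ± 4.82 CPM, SD, n = 12) came before Col-0 with SynCom at low Pi (4.98 ± 3.51 CPM), phf1 without bacteria at low Pi (2.66 ± 3.47 CPM) and phr1 phl1 with SynCom at low Pi (1.11 ± 1.61 CPM). No difference between the first 2 was called (log2 difference 0.22 ± 0.46, SE, adjusted p = 0.958, edgeR's quasi-likelihood test with Benjamini-Hochberg adjustment). The other 8 conditions averaged 0.222 to 0.937 CPM, and their libraries overlapped throughout.

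**Figure D1:**
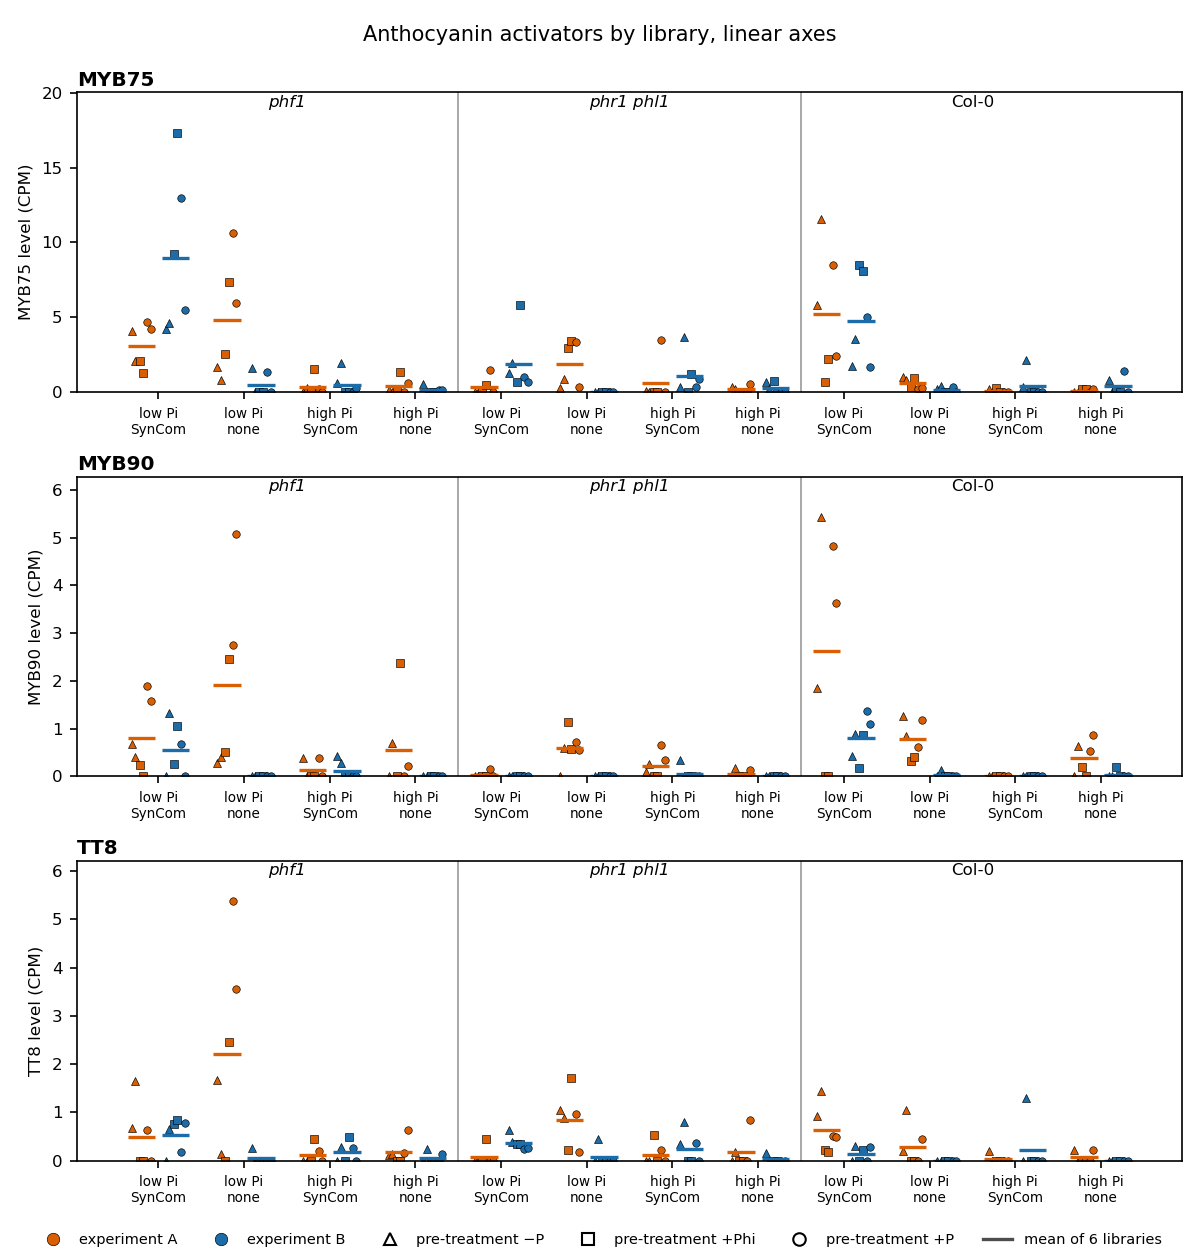
Levels of the activators MYB75, MYB90 and TT8 in CPM (y axes), with 1 point per library, colour for experiment, shape for pre-treatment and a bar at the mean of 6 libraries, by genotype, Pi and bacteria. MYB75 stands highest at low Pi with SynCom, where the phf1 libraries reach 17.3 CPM and the Col-0 libraries 11.6 CPM, and most high Pi libraries sit at or near 0.

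The effect of low against high Pi was tested within each genotype, with and without bacteria, over 12 libraries a side. In Col-0 with SynCom, low Pi raised MYB75, MYB90, GL3, EGL3 and MYB12 and lowered the repressor MYBL2. MYB75 was 5.51 ± 0.86 higher on the log2 scale (SE, adjusted p = 1.31e-07), with 273 counts at low Pi and 8 at high Pi, a ratio of 25.6 in pooled CPM. MYB90 had 92 counts in 10 of 12 libraries at low Pi and 0 in all 12 at high Pi, which is at least 23.0-fold higher against a floor of 3 counts over the group. It was called with an adjusted p of 1.15e-06. MYB113 had 19 counts at low Pi and 0 at high Pi, at least 4.74-fold higher, and passed in the fit without the filter (adjusted p = 0.0271). Of these 19 counts, 16 were in the +P libraries, where replicate A1 stood at 2.0 CPM and the others at 0.183 to 0.242 CPM.

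The bHLH partners had smaller log2 differences than MYB75. GL3 had 1.13, 2.06 and 4.91 CPM at low Pi and 0, 0.445 and 1.72 CPM at high Pi as lowest, median and highest in Col-0 with SynCom. It rose by 2.62 ± 0.36 (adjusted p = 1.78e-09). EGL3 had 1.3, 4.28 and 8.69 CPM at low Pi and 0, 1.04 and 2.92 CPM at high Pi, and rose by 1.78 ± 0.28 (adjusted p = 1.33e-07). The groups of both genes overlapped at their edges. TT8, the third bHLH partner, had 19 counts at low Pi and 4 at high Pi and was not called (2.49 ± 1.03, adjusted p = 0.0512).

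MYBL2, the repressor, had 16.5, 117 and 149 CPM at low Pi and 125, 208 and 297 CPM at high Pi in Col-0 with SynCom. It fell by 0.97 ± 0.20 (adjusted p = 3.60e-05), and only the upper end of the low Pi group reached into the high Pi group. Of the flavonol regulators, MYB12 had a median of 1.24 CPM at low Pi and 0.359 CPM at high Pi and rose by 1.63 ± 0.43 (adjusted p = 0.0011). MYB12 was not called in B alone (1.16, adjusted p = 0.172) or without replicate A2 (1.14, adjusted p = 0.0696). MYB111 had 61 counts at low Pi and 21 at high Pi and was not called (1.02 ± 0.50, adjusted p = 0.104). So all 6 genes that passed the filter were called in this comparison, in which 43.5% of all 19321 genes were.

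In phf1 with SynCom the same comparison called 5 of the 6, against 40.1% of all genes. MYB75 had 309 counts at low Pi and 20 at high Pi and rose by 4.01 ± 0.67 (adjusted p = 6.87e-07). MYB90 had 33 counts at low Pi and 6 at high Pi and rose by 2.58 ± 0.77 (adjusted p = 0.00496), though not in A alone (2.28, adjusted p = 0.196) or without replicate B2 (1.93, adjusted p = 0.0966). GL3 had medians of 2.65 CPM at low Pi and 0.861 CPM at high Pi and rose by 1.45 ± 0.30 (adjusted p = 3.83e-05). EGL3 had medians of 4.16 CPM at low Pi and 2.42 CPM at high Pi and rose by 0.89 ± 0.26 (adjusted p = 0.00397), a call that ended in B alone (0.65, adjusted p = 0.0913) and without replicate A2 (0.70, adjusted p = 0.0599). MYBL2 had medians of 99.9 CPM at low Pi and 163 CPM at high Pi and fell by 0.79 ± 0.20 (adjusted p = 8.64e-04). MYB12 was not called (0.68 ± 0.37, adjusted p = 0.136). The libraries of the low and high Pi groups overlapped for each of these genes.

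In phr1 phl1 none of the 6 was called at either bacterial setting. With SynCom 9.82% of all genes were called, and MYB75 had 49 counts at low Pi and 48 at high Pi (0.44 ± 0.73, adjusted p = 0.761). Of the 48, 16 were in the +P A1 library, which is among the 4 whose genotype is in doubt. The -P B2 library also stood high, so the near-equal totals rest in part on these libraries. GL3 stood at -0.12 ± 0.35 (adjusted p = 0.916), EGL3 at 0.47 ± 0.26 (adjusted p = 0.251) and MYBL2 at 0.18 ± 0.20 (adjusted p = 0.618), the last with medians of 147 CPM at low Pi and 145 CPM at high Pi. Here 0 of the 6 had an unadjusted p under 0.05 in edgeR's test, and DESeq2 called 0. Without bacteria 0.419% of all genes were called. MYB75 had 39 counts at low Pi and 15 at high Pi there (1.68 ± 0.93, adjusted p = 0.601), 1 of the 6 had an unadjusted p under 0.05, and DESeq2 called 0.

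Without bacteria, low Pi raised MYB75 in phf1 but not detectably in Col-0. In phf1 4.70% of all genes were called, and MYB75 had 178 counts at low Pi and 13 at high Pi, a rise of 3.26 ± 0.74 (adjusted p = 0.00349). The rise was in experiment A (3.69, adjusted p = 4.03e-04), whereas B held 11 counts at low Pi and 4 at high Pi, and the call ended without replicate A1 (2.63, adjusted p = 0.237) or A2 (3.66, adjusted p = 0.0539). TT8 also passed there in the fit without the filter, with 80 counts at low Pi and 8 at high Pi (2.88 ± 0.85, adjusted p = 0.0404), and 79 of those 80 were in experiment A. The +P replicates A1 and A2 held 47 and 21 of the 80, so most of the TT8 counts came from a single pre-treatment. MYB90 was not called (1.61 ± 0.65, adjusted p = 0.131). In Col-0 without bacteria 0.471% of all genes were called, and none of the 6. MYB75 had 30 counts at low Pi and 9 at high Pi (0.91 ± 1.01, adjusted p = 0.762). In that comparison 0 of the 6 had an unadjusted p under 0.05, and DESeq2 called 0. MYBL2 was lower at low Pi without bacteria in experiment A alone, by -0.87 in phf1 (adjusted p = 0.0026) and -0.79 in Col-0 (adjusted p = 0.0163).

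**Figure D2:**
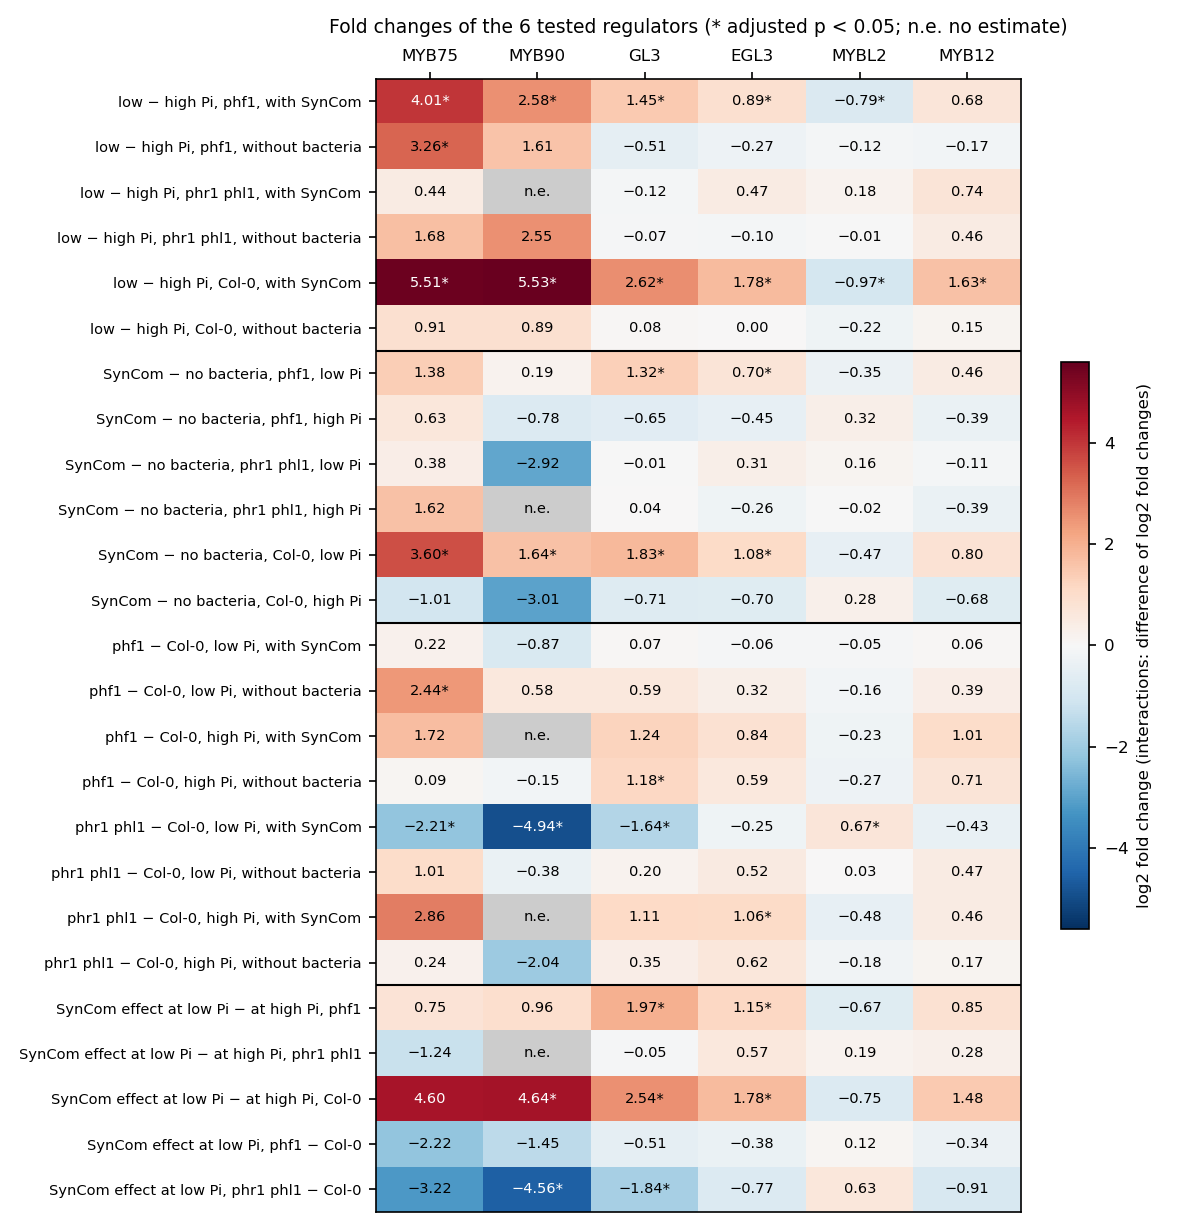
Log2 differences of the 6 genes that passed the filter on low counts (columns) in 25 comparisons (lines of the map), with colour for size and direction, * for an adjusted p under 0.05 and n.e. where no estimate was possible. The activators are higher at low Pi with SynCom in phf1 and Col-0, where MYBL2 is lower, and no cell of phr1 phl1 in the Pi and SynCom comparisons has a star. Values of MYB90 that involve Col-0 at high Pi with SynCom, with 0 counts, depend on the prior count.

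SynCom was then set against no bacteria at each Pi level, with the same low Pi and high Pi libraries entering as above. In Col-0 at low Pi, where 27.1% of all genes were called, 4 of the 6 rose. MYB75 rose by 3.6 ± 0.61 (adjusted p = 1.22e-06), with 273 counts with SynCom and 30 without bacteria. It rose in both experiments, by 2.83 in A and 5.04 in B. GL3 had medians of 2.06 CPM with SynCom and 0.730 CPM without bacteria and rose by 1.83 ± 0.30 (adjusted p = 4.83e-07), by 2.08 in A and 1.45 in B. EGL3 had medians of 4.28 CPM with SynCom and 2.31 CPM without bacteria and rose by 1.08 ± 0.25 (adjusted p = 4.03e-04). In B alone EGL3 was not called (0.68, adjusted p = 0.0971).

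MYB90 had 92 counts with SynCom and 33 without bacteria in Col-0 at low Pi and rose by 1.64 ± 0.54 (adjusted p = 0.017). In experiment A there were 65 counts with SynCom and 32 without bacteria, or 2.50 and 0.861 CPM when pooled, and in B there were 27 counts with SynCom and 1 without. The fitted difference in A alone was -0.04 (adjusted p = 0.737). It averages the pre-treatments on the log scale and includes a +Phi group with 0 counts in both libraries with SynCom, so it depends on the prior count. The call ended without replicate B1 (1.48, adjusted p = 0.0866), without B2 (0.87, adjusted p = 0.563), without the experiment term (1.42) and with DESeq2 (2.1). MYB111 passed without the filter, with 61 counts with SynCom and 22 without bacteria, a ratio of 3.09 (1.51 ± 0.48, adjusted p = 0.0155). MYBL2 (-0.47 ± 0.20, adjusted p = 0.0663) and MYB12 (0.80 ± 0.36, adjusted p = 0.0855) were not called over both experiments. MYBL2 was called in B alone (-0.92, adjusted p = 6.62e-06), without A1 (-0.64, adjusted p = 0.0404) and without A2 (-0.67, adjusted p = 0.00891), and stood at 0.15 in A alone. MYB12 was called in A alone (1.38, adjusted p = 0.0195) and without B1 (1.19, adjusted p = 0.0215).

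In phf1 at low Pi, where 17.5% of all genes were called, GL3 rose by 1.32 ± 0.29 with SynCom (adjusted p = 4.57e-04), with medians of 2.65 CPM with SynCom and 1.17 CPM without bacteria. EGL3 passed narrowly (0.70 ± 0.26, adjusted p = 0.0464) and was lost in A alone (0.52, adjusted p = 0.253), without replicate A1, B1 or B2 (0.65, 0.46 and 0.78) and under both other filters. MYB75 missed the threshold over all libraries (1.38 ± 0.52, adjusted p = 0.0537). It was called without A1 (1.94, adjusted p = 0.0219), without A2 (2.02, adjusted p = 0.0177) and in B alone (4.93, adjusted p = 1.22e-05), but not in A alone. In phr1 phl1 at low Pi 4.26% of all genes were called and 0 of the 6, of which 1 had an unadjusted p under 0.05, and DESeq2 called 0. MYB75 stood at 0.38 ± 0.75 (adjusted p = 0.888) and GL3 at -0.01 ± 0.22 (adjusted p = 0.999) there. For MYB75 the fitted values of the experiments had opposite signs. In A it had 12 counts with SynCom and 39 without bacteria (-3.06, adjusted p = 0.131). In B it had 37 counts with SynCom and 0 without bacteria and was called (5.65, adjusted p = 0.0118), with a size that depends on the prior count. MYB90 had 1 count with SynCom and 14 without bacteria in phr1 phl1.

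At high Pi, SynCom moved none of the 6 past the threshold over both experiments, though EGL3 in Col-0 was called in A alone (-1.23, adjusted p = 0.0315). The share of all genes called was 4.32% in phf1, 4.19% in phr1 phl1 and 7.38% in Col-0. The number of the 6 with an unadjusted p under 0.05 was 1 in phf1, 0 in phr1 phl1 and 2 in Col-0, and DESeq2 called 0 in each. MYB90 had 0 counts with SynCom and 11 without bacteria in Col-0 at high Pi (adjusted p = 0.0733).

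**Figure D3:**
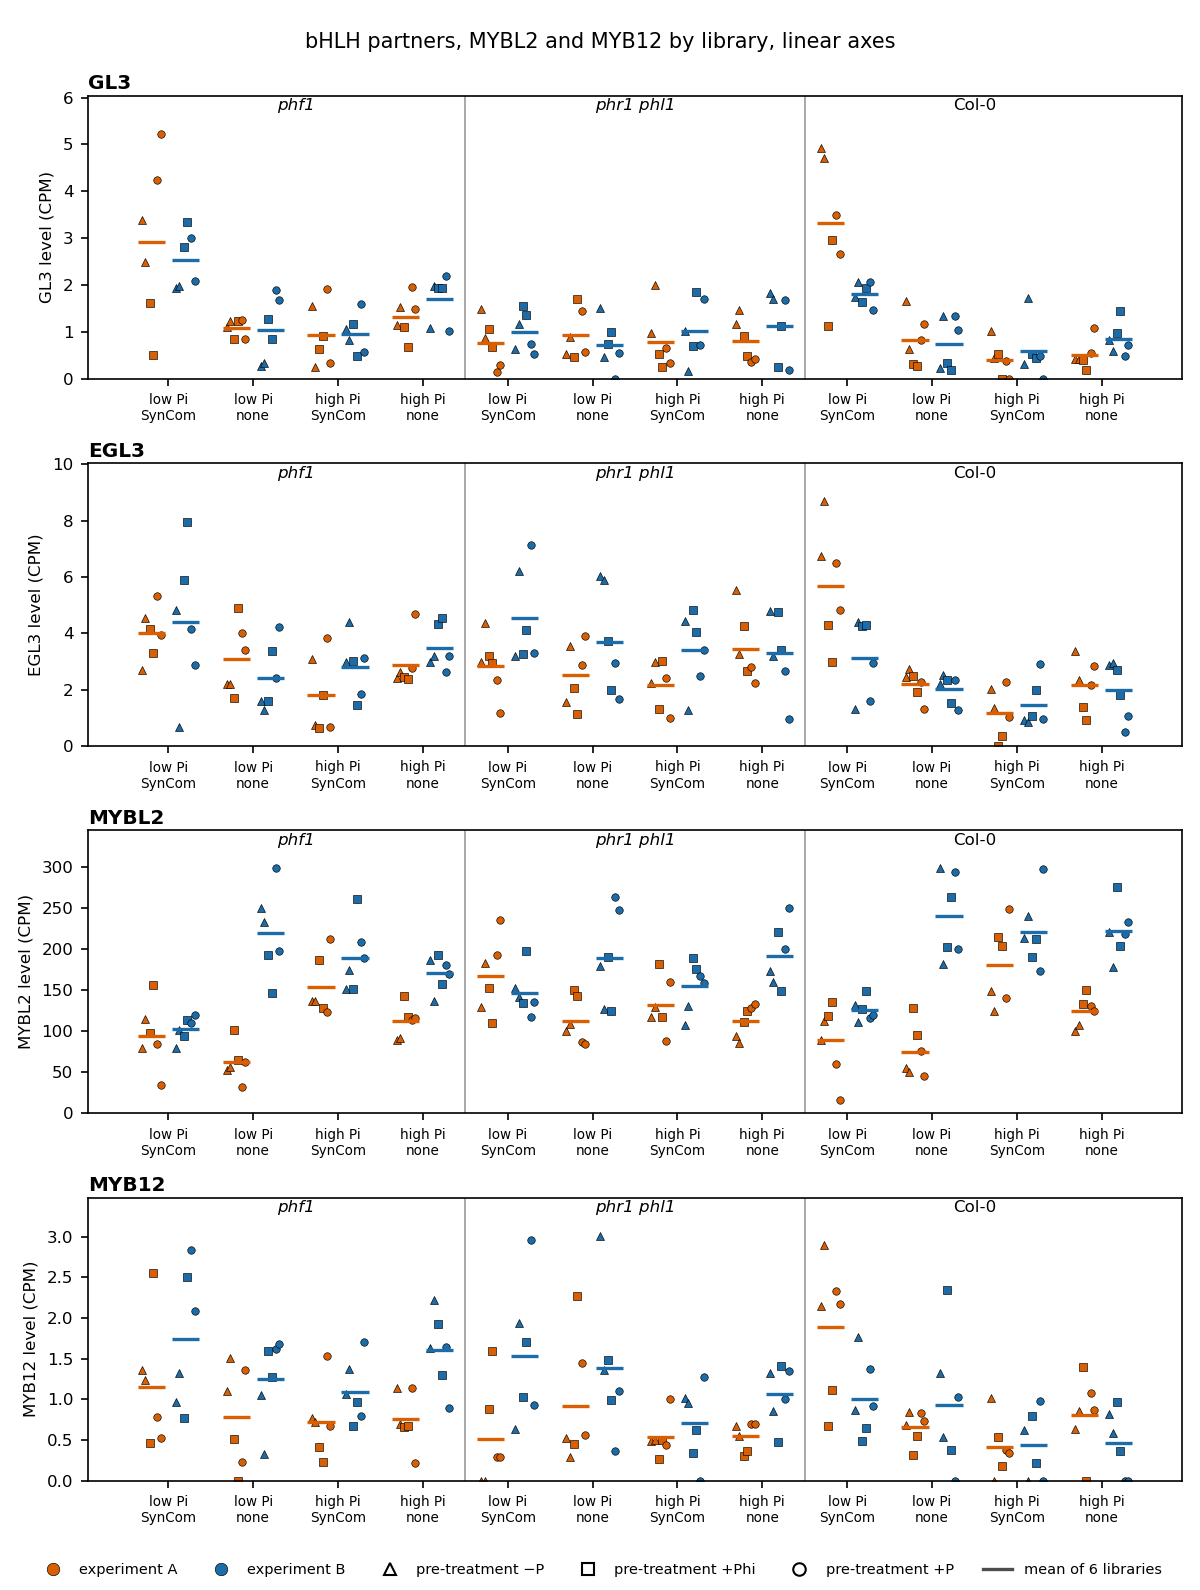
Levels in each library, in CPM, of the bHLH partners GL3 and EGL3, of the repressor MYBL2 and of the flavonol regulator MYB12 (y axes), with colour for experiment, shape for pre-treatment and a bar at the mean of 6 libraries, by genotype, Pi and bacteria. GL3 and EGL3 are highest at low Pi with SynCom in phf1 and Col-0, and MYBL2 in low Pi libraries without bacteria is lower in A than in B, without overlap in phf1 and Col-0.

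Whether the SynCom effect depended on Pi was tested as an interaction. In Col-0, where 10% of all genes were called, the SynCom effect at low Pi exceeded that at high Pi by 2.54 ± 0.54 for GL3 (adjusted p = 5.63e-04) and 1.78 ± 0.40 for EGL3 (adjusted p = 0.00114). For MYB90 the value was 4.64 ± 1.26 (adjusted p = 0.00982), which involves a group with 0 counts, so its size depends on the prior count and is no bound. MYB75 was not called over all libraries (4.6 ± 1.8, adjusted p = 0.0842), but was with DESeq2 (4.34). In phf1, with 9.83% of all genes called, the values were 1.97 ± 0.42 for GL3 (adjusted p = 7.53e-04) and 1.15 ± 0.36 for EGL3 (adjusted p = 0.0286). EGL3 in phf1 was lost without the 4 libraries in doubt (0.96, adjusted p = 0.0903). In phr1 phl1 0.171% of all genes were called and 0 of the 6, with 0 at an unadjusted p under 0.05 and 0 called by DESeq2. The leave-one-out fits ended several of these calls: EGL3 in phf1 without A2, B1 or B2 (1.08, 1.01 and 1.3), EGL3 in Col-0 without A2 (1.44), and MYB90 in Col-0 without B1 or B2 (4.55 and 4.25). In B alone neither GL3 (2.23, adjusted p = 0.0556) nor EGL3 (1.07, adjusted p = 0.237) was called in Col-0. In A alone neither GL3 (1.67, adjusted p = 0.121) nor EGL3 (1.23, adjusted p = 0.19) was called in phf1.

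The difference between genotypes in the SynCom effect at low Pi was tested directly. It was smaller in phr1 phl1 than in Col-0 by -1.84 ± 0.49 for GL3 (adjusted p = 0.00949) and by -4.56 ± 1.22 for MYB90 (adjusted p = 0.0108), in a comparison that called 7.53% of all genes. The value of MYB90 rests on 1 count in phr1 phl1 with SynCom, so its size depends on the prior count and is no bound. GL3 was lost without A1 (-1.71, adjusted p = 0.116), without A2 (-1.41, adjusted p = 0.184) and in B alone (-0.99), and MYB90 without A1 (-4.86) or B2 (-4.11). For MYB75 the difference was not called over all libraries. It was called in A alone (-5.89, adjusted p = 0.00378), without B2 (-4.27, adjusted p = 0.0142) and in a fit of the compared genotypes only (-3.22, adjusted p = 0.0489). Between phf1 and Col-0 0.305% of all genes differed, and 0 of the 6 were called by edgeR's test or DESeq2, with 1 at an unadjusted p under 0.05.

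Genotypes were compared at each Pi level and bacterial setting. At low Pi with SynCom MYB75, MYB90 and GL3 were lower in phr1 phl1 than in Col-0, and the repressor MYBL2 was higher. MYB75 had 49 counts in phr1 phl1 and 273 in Col-0 and fell by 2.21 ± 0.57 on the log2 scale (adjusted p = 0.00151), clearly in A (-4.57, adjusted p = 3.11e-04) and not past the threshold in B (-1.40, adjusted p = 0.109). MYB90 had 1 count in phr1 phl1 and 92 in Col-0 and was called (adjusted p = 1.26e-05). GL3 had medians of 0.806 CPM in phr1 phl1 and 2.06 CPM in Col-0 and fell by 1.64 ± 0.31 (adjusted p = 1.61e-05), in A by 2.42 and in B not past the threshold (-0.89, adjusted p = 0.152). MYBL2 had medians of 147 CPM in phr1 phl1 and 117 CPM in Col-0 and rose by 0.67 ± 0.20 (adjusted p = 0.00707), in A (1.05) and not in B (0.21, adjusted p = 0.427), and was lost without A1 (0.57) or A2 (0.48). The background of this comparison was 27.7% of all genes called. EGL3, the other bHLH partner, was not called there over both experiments (-0.25 ± 0.24, adjusted p = 0.484), but was in A alone (-0.93, adjusted p = 0.0164). MYB12, too, was called in A alone (-3.02, adjusted p = 0.00428) and not over both experiments.

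In the same comparison 5 of 6 shoot markers were higher in phr1 phl1 and 3 of 7 root markers tested were lower, beside 27.7% of all genes called. The summed shoot markers ranged from 20732 to 66234 CPM (median 44751) in phr1 phl1 and from 12000 to 52758 CPM (median 34748) in Col-0. Their part in the differences of MYB75, MYB90, GL3 and MYBL2 was not tested. In the Pi comparison of Col-0 with SynCom, too, 5 of 6 shoot markers were lower at low Pi, beside 43.5% of all genes called. The summed levels had a median of 34748 CPM at low Pi and 44118 CPM at high Pi. In phf1 with SynCom 0 of 6 shoot markers were called between low and high Pi, beside 40.1% of all genes. The summed medians were 40330 and 38281 CPM. Of 7 root markers tested, 1 was higher at low Pi in phf1 with SynCom, and in Col-0 with SynCom 1 was higher and 1 lower. The part of shoot and root markers in the Pi differences of the regulators was not tested.

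The remaining genotype comparisons gave few calls. Between phr1 phl1 and Col-0, 3.97% of all genes were called at low Pi without bacteria, 0.109% at high Pi without bacteria and 1.14% at high Pi with SynCom. In the first of these 0 of the 6 had an unadjusted p under 0.05 and in the second 2 had, with 0 called by edgeR's test and 0 by DESeq2 in either. At high Pi with SynCom EGL3 was called at the edge of the threshold (1.06 ± 0.30, adjusted p = 0.0496), with 129 counts in phr1 phl1 and 54 in Col-0, and lost the call in most alternatives, among them the fit without the 4 libraries in doubt (1.05, adjusted p = 0.0905).

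Between phf1 and Col-0, MYB75 was higher at low Pi without bacteria by 2.44 ± 0.68 (adjusted p = 0.0265), with 178 counts in phf1 and 30 in Col-0, where 2.75% of all genes were called. In A its lowest, median and highest levels there were 0.823, 4.24 and 10.7 CPM in phf1 and 0.208, 0.576 and 0.978 CPM in Col-0. In B they were 0, 0 and 1.58 CPM in phf1 and 0, 0.110 and 0.400 CPM in Col-0. The call ended without A1 (2.1, adjusted p = 0.402), A2 (2.86, adjusted p = 0.125) or B1 (2.51, adjusted p = 0.071). At high Pi without bacteria GL3 was higher in phf1 by 1.18 ± 0.32 (adjusted p = 0.0224; 3.62% of all genes called), with medians of 1.5 CPM in phf1 and 0.563 CPM in Col-0, but leaving out any of the 4 replicates ended the call (1.06 to 1.26). With SynCom 0.0569% of all genes were called between phf1 and Col-0 at low Pi and 0.233% at high Pi, with 0 of the 6 called by edgeR's test or DESeq2 and 0 and 3 of them at an unadjusted p under 0.05.

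Among the 6 genes and over both experiments, pre-treatment changed MYB90 in 1 of 12 comparisons and no other gene past the threshold. In Col-0 at low Pi with SynCom, MYB90 had 0, 0, 0.164 and 0.855 CPM after +Phi and 4.83, 3.63, 1.37 and 1.1 CPM after +P, in replicates A1, A2, B1 and B2, so the 4 libraries of each pre-treatment did not overlap. After -P the same replicates had 1.84, 5.43, 0.434 and 0.882 CPM. The difference between +Phi and +P was -3.12 ± 0.81 (adjusted p = 0.0109, with 6.49% of all genes called). It was not called by DESeq2 (-2.58), without A1 (-2.41, adjusted p = 0.196) or without B1 (-3.17, adjusted p = 0.0588). MYB75, in the same libraries, had 0.678, 2.22, 8.52 and 8.12 CPM after +Phi and 8.49, 2.42, 5.02 and 1.65 CPM after +P, which overlapped (0.19 ± 0.77). Fitted in A alone, MYBL2 was higher after +Phi than after +P in Col-0. This held at low Pi with SynCom (1.69, adjusted p = 0.0024) and over Pi and bacteria (0.7, adjusted p = 0.036). GL3 was lower after +Phi in phf1 at low Pi with SynCom, also in A alone (-2.1, adjusted p = 0.0245).

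None of the 6 was called over both experiments in the other 11 pre-treatment comparisons. For +Phi minus +P the share of all genes called was 0.616% in phf1, 4.77% in phr1 phl1 and 1.31% in Col-0 over Pi and bacteria, and at low Pi with SynCom 0.0518% in phf1 and 1.66% in phr1 phl1. For -P minus +P it was 0% in phf1, 0.0104% in phr1 phl1 and 0% in Col-0 over Pi and bacteria, and at low Pi with SynCom 0% in phf1, 0% in phr1 phl1 and 0.00518% in Col-0. Where edgeR's test called 0 genes, 944 genes in phf1 and 1894 in Col-0 over Pi and bacteria had an unadjusted p under 0.05, as had 627 in phf1 and 873 in phr1 phl1 at low Pi with SynCom. DESeq2 called 27 genes in Col-0 over Pi and bacteria and 0 in the others. Among the 6, the number with an unadjusted p under 0.05 was 0 to 2 in each of these 11 comparisons. DESeq2 called 0, but it gave no adjusted p for several of them. In Col-0 over Pi and bacteria these were 5 of the 6, both for -P and for +Phi. They were 4 in phf1 for +Phi at low Pi with SynCom, and 3 in phr1 phl1 in both +Phi comparisons. For those genes the 0 of DESeq2 decides nothing, since they could not be called.

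At low Pi without bacteria, MYB75, MYB90, TT8 and MYBL2 stood at unlike levels in A and B, a difference in level that was not tested. MYB75 had 39 counts in the 6 phr1 phl1 libraries of A (0.259, 1.92 and 3.41 CPM as lowest, median and highest) and 0 in all 6 of B. MYB90 had 65 counts in the phf1 libraries of A, found in 6 of 6, and 0 in B. The +P libraries A1 and A2 held 24 and 30 of the 65. TT8 had 79 counts in A and 1 in B in phf1, with 47 and 21 in the same +P libraries. MYBL2 went the other way, with 32.5, 59.6 and 102 CPM in A and 146, 215 and 299 CPM in B in phf1, 84.2, 104 and 150 CPM in A and 124, 185 and 263 CPM in B in phr1 phl1, and 45.9, 65.2 and 128 CPM in A and 181, 233 and 299 CPM in B in Col-0. The MYBL2 libraries of A and B did not overlap in phf1 or Col-0 there. How many of all genes kept apart in this way was not counted. Over all 72 libraries of each experiment, MYB90 had 232 counts in A and 45 in B, and TT8 152 and 44. MYB75 had 488 and 503 counts, and MYBL2 medians of 117 and 179 CPM. These values include the libraries at low Pi without bacteria. With SynCom at low Pi, MYB75 in phf1 had 1.27, 3.07 and 4.70 CPM in A and 4.20, 7.34 and 17.3 CPM in B, and MYBL2 in Col-0 had a median of 101 CPM in A and 123 CPM in B.

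The SynCom effect at low Pi was compared between A and B in a fit with separate means for each experiment, over 19678 genes. In phf1, where 31.3% of all genes differed, the A minus B value was -5.30 ± 1.07 for MYB75 (adjusted p = 1.05e-04), -5.38 ± 1.69 for MYB90 (adjusted p = 0.0128), -5.52 ± 1.91 for TT8 (adjusted p = 0.0233), -3.09 ± 1.20 for MYB111 (adjusted p = 0.0401) and 1.62 ± 0.27 for MYBL2 (adjusted p = 3.50e-06). By itself, the SynCom effect on MYB75 in phf1 was -0.31 in A (adjusted p = 0.748) and 4.93 in B (adjusted p = 1.22e-05). That on MYBL2 was 0.58 in A (adjusted p = 0.0504) and -1.07 in B (adjusted p = 6.08e-07). In phr1 phl1, where 15.8% differed, the values were -8.78 ± 2.09 for MYB75 (adjusted p = 0.00245), -6.40 ± 2.06 for TT8 (adjusted p = 0.026) and 0.93 ± 0.27 for MYBL2 (adjusted p = 0.0118). In Col-0, where 27.3% differed, they were -4.12 ± 1.45 for MYB90 (adjusted p = 0.0289) and 1.07 ± 0.27 for MYBL2 (adjusted p = 0.0015). Without bacteria in B, MYB75 in phr1 phl1 and MYB90 in phf1 had 0 counts, and TT8 in both mutants and MYB90 in Col-0 had 1, so the sizes of these values depend on the prior count and are no bounds. Leaving out 1 replicate ended most of these calls. MYB90 in Col-0 (-3.95 to -4.29), MYB111 in phf1 (-2.18 to -4.24) and TT8 in phr1 phl1 (-5.89 to -7.56) were lost in each such fit. Also lost were MYB90 in phf1 without A2 (-4.31), MYB75 in phr1 phl1 without A2 or B2 (-9.45 and -8.14), MYBL2 in phr1 phl1 without B1 or B2 (0.60 and 1.2) and MYBL2 in Col-0 without B1 (0.94). Those that held with each of the 4 replicates left out were MYB75 and MYBL2 in phf1. TT8 in phf1 held without A1 (-6.40) and without B1 (-7.21) and had no value in the other such fits.

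At high Pi the SynCom effect differed between A and B for 6.12% of all genes in phf1, 7.83% in phr1 phl1 and 17.1% in Col-0, and none of the 8 of the 10 genes tested in that fit was among them. For the Pi effect, 1.11% of genes differed in phf1 with SynCom, 1.18% in phr1 phl1 with SynCom, 3.06% in Col-0 with SynCom, 0.0457% in phr1 phl1 without bacteria and 1.23% in Col-0 without bacteria, again with none of the 8 over all libraries. DESeq2 was not run on these differences. MYBL2 in Col-0 without bacteria was called in the fit without the filter on low counts (-0.92, adjusted p = 0.036). It also passed the threshold without the 4 libraries in doubt (-1) and without A1 (-1.17). In phf1 without bacteria 12.0% differed, MYBL2 among them (-1.20 ± 0.27, adjusted p = 0.00182), though not without B1 (-1.16, adjusted p = 0.101). In Col-0 the Pi effect with SynCom was 5.76 in A and 5.32 in B for MYB75, 3.25 in A and 1.94 in B for GL3 and 2.64 in A and 1.22 in B for EGL3, all called within each experiment. Within A, the Col-0 libraries with SynCom did not overlap for MYB75, the lowest being 0.678 CPM at low Pi and the highest 0.266 CPM at high Pi. Within B they did, the lowest being 1.65 CPM at low Pi and the highest 2.15 CPM at high Pi.

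The enzymes on which these regulators act were described from lists of 9 early flavonoid genes, 7 of them tested, and 9 anthocyanin genes, 8 of them tested. In Col-0 with SynCom low Pi raised 8 of 8 anthocyanin genes (median log2 difference 1.86) and 6 of 7 early genes (median 0.92), when the median over all genes tested was 0.02. In that comparison 43.5% of all genes were called. GSTF12, a glutathione transferase that carries anthocyanins toward the vacuole, rose by 5.03 ± 0.92 (adjusted p = 4.64e-06), and DFR, dihydroflavonol reductase, by 2.44 ± 0.61 (adjusted p = 6.05e-04). CHS, chalcone synthase, rose by 2.25 ± 0.33 (adjusted p = 1.32e-08) and FLS1, flavonol synthase, by 1.73 ± 0.37 (adjusted p = 7.82e-05). In phf1 with SynCom 6 of 8 anthocyanin genes (median 1.87) and 6 of 7 early genes (median 1.00) rose, with CHS up by 2.60 ± 0.32 (adjusted p = 1.18e-10). There 40.1% of all genes were called.

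In phr1 phl1 9.82% of all genes were called between low and high Pi with SynCom and 0.419% without bacteria. With SynCom low Pi raised 1 of 8 anthocyanin genes, UGT78D2, a flavonoid glucosyltransferase (0.79 ± 0.15, adjusted p = 7.08e-05), and 2 of 7 early genes, with CHS up by 1.63 ± 0.32 (adjusted p = 1.89e-04). CHS was thus called at low Pi with SynCom in all 3 genotypes, and MYB75 in phf1 and Col-0. Without bacteria GSTF12 rose by 2.89 ± 0.74 in phr1 phl1 (adjusted p = 0.0468), as 1 of 8 anthocyanin genes (median 1.25). The differences between genotypes in these counts were not tested.

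Without bacteria, low Pi raised 6 of 8 anthocyanin genes in phf1, where 4.70% of all genes were called. The median was 2.08, with 2.92 in A alone and 0.08 in B alone. GSTF12 (3.99 ± 0.66, adjusted p = 1.74e-05) and LDOX, leucoanthocyanidin dioxygenase (2.99 ± 0.57, adjusted p = 3.34e-04), had the smallest p. In Col-0 without bacteria 0 of 8 anthocyanin and 0 of 7 early genes passed edgeR's test, beside 0.471% of all genes. Of these, 1 and 0 had an unadjusted p under 0.05, and DESeq2 called 0 of the anthocyanin and early genes. SynCom against no bacteria at low Pi raised 2 of 8 anthocyanin genes in Col-0 (GSTF12 by 2.51 ± 0.62 and UGT78D2 by 0.43 ± 0.14, adjusted p = 0.00106 and 0.0167) and 4 of 7 early genes (median 0.79). In that comparison 27.1% of all genes were called. In phf1 SynCom raised 0 of 8 anthocyanin genes at low Pi by edgeR's test, beside 17.5% of all genes called. Of these 8, 1 had an unadjusted p under 0.05 and DESeq2 called 0. The median there was -0.36, made of -1.14 in A and 1.14 in B.

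**Figure D4:**
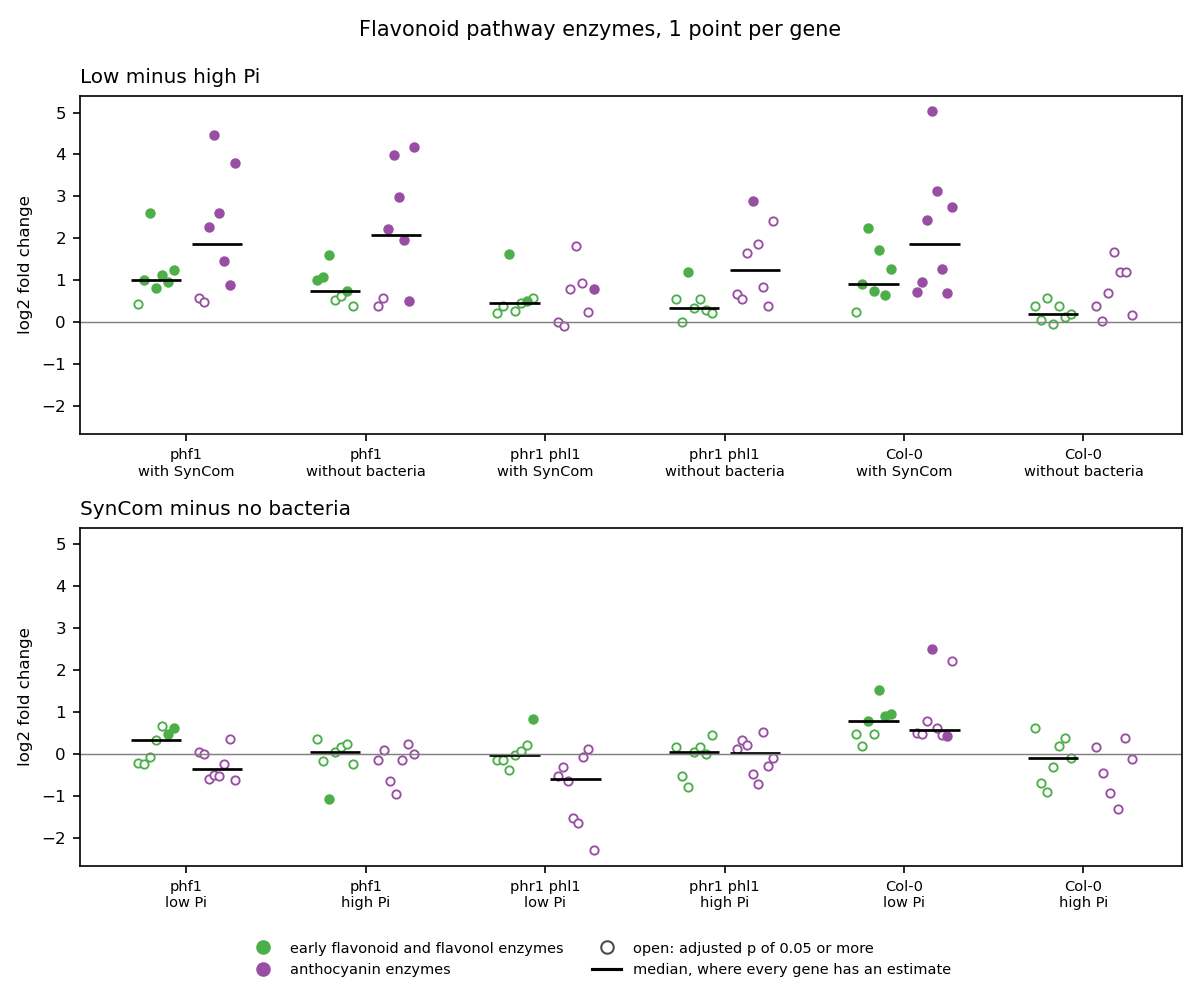
Log2 differences of the tested early flavonoid genes and anthocyanin genes, each point 1 gene, in the Pi and SynCom comparisons, with a bar at the median where every gene has an estimate. Anthocyanin genes lie above 0 at low Pi with SynCom in Col-0, where 8 of 8 were called, and in phf1, where 6 of 8 were, with medians of 1.86 and 1.87. Of all genes, 43.5% were called there in Col-0 and 40.1% in phf1.

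Of 14 further regulators of the pathway, 12 were tested. In Col-0 with SynCom low Pi raised 2 and lowered 4 of them (median -0.13), which is 6 of 12 beside 43.5% of all genes called. KFB, an F-box protein that marks chalcone synthase for degradation, fell by 0.73 ± 0.15 (adjusted p = 3.46e-05), TTG1, the WD40 partner, by 0.49 ± 0.11 (adjusted p = 1.34e-04) and LBD38, a repressor of anthocyanin genes, by 0.45 ± 0.11 (adjusted p = 6.01e-04). In phf1 with SynCom 1 rose and 4 fell, beside 40.1% of all genes called. Between phr1 phl1 and Col-0 at low Pi with SynCom, 4 were higher and 1 lower, beside 27.7% of all genes called. KFB was higher by 0.88 ± 0.15 (adjusted p = 1.76e-06) and LBD38 by 0.65 ± 0.11 (adjusted p = 2.14e-06).

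GL3 and EGL3 also work in the epidermis, and 5 of 7 genes of trichome and root hair fate were tested. In Col-0 with SynCom low Pi raised 3 and lowered 1 of them (median 1.02), beside 43.5% of all genes called. ETC3 rose by 3.12 ± 0.46 (adjusted p = 2.31e-08) and ETC1 by 2.06 ± 0.38 (adjusted p = 6.17e-06). Both are small MYB proteins that compete for the bHLH partner. GL2, a homeodomain protein that keeps root epidermal cells hairless, fell by 1.21 ± 0.25 (adjusted p = 3.03e-05). In phf1 with SynCom ETC3 rose by 2.37 ± 0.42 (adjusted p = 2.29e-06) and ETC1 by 2.17 ± 0.36 (adjusted p = 7.14e-07). At low Pi with SynCom ETC3 was lower in phr1 phl1 than in Col-0 by 2.60 ± 0.44 and ETC1 by 2.31 ± 0.40 (adjusted p = 1.45e-06 and 2.42e-06), as was GL3.

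Likeness of pattern was described by Pearson's r of log2 CPM over 72 means, of each group in each experiment, with each experiment centred on its own mean. These means share libraries and depth, and r is given as a description. Among the 6 genes, MYB75 was most like MYB90 (r = 0.74, 0.81 in A and 0.75 in B), while GL3 stood at 0.62 with EGL3 (0.73 in A and 0.47 in B) and at 0.61 with MYB75 (0.62 in A and 0.60 in B). MYBL2 ran against MYB90 (-0.73) and MYB75 (-0.62). Among all genes tested, those nearest to MYB75 were AT5G53420 (0.88), APK (0.86), SULTR3;4 (0.86), GolS2 (0.86) and ICS2 (0.86). Those nearest to MYB90 were APL3 (0.84), GSTF12 (0.81), BETA-VPE (0.78), LSU2 (0.77) and PAP19 (0.77).

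GL3 was nearest to AT2G17280, AT1G27660, GMD1 and AT5G42860 (0.80 each) and NSP4 (0.79), and EGL3 to AT5G48310 (0.77), AT3G51280 and MAP65-2 (0.76 each) and AT3G23940 and PRL (0.75 each). MYBL2, with its far higher counts, had the closest neighbours, AT3G59940, AGT and SNG1 at 0.92 and SEN1 and GPX1 at 0.91. For MYB12 the highest values were 0.70 with AT3G14530 and 0.67 with AT5G62580, AT3G45090, AT3G06460 and AT1G64920.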

How the data were processed

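RNA of whole seedlings was read as poly(A) libraries without strand. The deposited file holds raw counts per gene, whole numbers made by the authors, for 27206 genes in every library of the 36 groups. The submitters' processing notes name HTSeq 0.6.1p1, TopHat2 2.1.1, cutadapt 1.3 and CASAVA 1.8, and the build TAIR10; settings are not given in the sources used here. Sequences and coordinates come from RefSeq TAIR10.1, matched by locus for 26719 genes. The 10 genes and the gene lists were chosen with earlier results of these data known.

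Counts were scaled by TMM in edgeR 4.0.16 (R 4.3.3, limma 3.58.1). Genes were kept by edgeR's filter with a minimum count of 10, which left 19321. A quasi-likelihood model held 36 group means and an experiment term. Contrasts averaged the pre-treatments, and p-values were adjusted by Benjamini-Hochberg within each contrast, with a threshold of 0.05. SE is the fold change divided by the root of F. A second model with separate means for A and B, over 19678 genes, gave the A minus B values. The floor was 3 counts. The scripts were tested on simulated data. Replicates came from 2 independent experiments, and 0 library pairs were identical. Replicate numbers did not pair samples (mean correlation of deviations 0.0094 in A and 0.0092 in B). The genes named are the 10 regulators, the 3 of each list with the smallest p in a comparison described, the 3 mutated genes and the 5 nearest in likeness. Alternatives were DESeq2 1.42.0, other filters and size factors, each experiment alone, each replicate left out, a replicate block and libraries in doubt left out.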

Additional observations from a re-analysis of the deposited data

Results flagged for a closer look

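In groups of 4 libraries, 1 library stood far from the other 3 in 7 of 159 sets of a gene and a group, where chance gives about 1 in 20. MYB75 reached 13.0 CPM in phf1, +P, low Pi, SynCom B1, against 4.18 to 5.47 CPM in the others. MYB113 stood at 2.0 CPM in Col-0, +P, low Pi, SynCom A1, against 0.183 to 0.242 CPM. GL3 stood at 1.67 CPM in phr1 phl1, +P, high Pi, no bacteria B1, against 0.192 to 0.419 CPM. EGL3 was low at 2.97 CPM in Col-0, +Phi, low Pi, SynCom A2, against 4.26 to 4.29 CPM. MYBL2 was low at 87.6 CPM in phr1 phl1, +P, high Pi, SynCom A1, against 158 to 168 CPM, and this is a library whose PHR1 and PHL1 counts went against its label. MYB12 stood at 2.34 CPM in Col-0, +Phi, low Pi, no bacteria B1, against 0.312 to 0.546 CPM. It stood at 1.41 CPM in phr1 phl1, +Phi, high Pi, no bacteria B2, against 0.303 to 0.474 CPM.

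The effect of SynCom differed between Pi levels by a test of the difference for GL3 and EGL3 in phf1 (1.97 and 1.15) and for GL3, EGL3 and MYB90 in Col-0 (2.54, 1.78 and 4.64, log2). Between phr1 phl1 and Col-0 the SynCom effect at low Pi differed for GL3 (-1.84) and MYB90 (-4.56).

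Between experiments A and B the SynCom effect at low Pi differed in phf1 for MYB75 (-5.30), MYB90 (-5.38), TT8 (-5.52), MYB111 (-3.09) and MYBL2 (1.62). In phr1 phl1 it differed for MYB75 (-8.78), TT8 (-6.40) and MYBL2 (0.93), and in Col-0 for MYB90 (-4.12) and MYBL2 (1.07). The Pi effect without bacteria differed for MYBL2 in phf1 (-1.20). Summed shoot markers at low Pi without bacteria in phf1 had medians of 29382 CPM in A and 45496 CPM in B, and their part in these differences was not tested.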

How the results depend on the processing

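Over all libraries 12 calls of these genes were made in the Pi comparisons, 6 for SynCom, 7 for genotype, 1 for pre-treatment, 7 for interactions and 11 for A against B. Leaving out 1 replicate at a time gave 7 to 12 calls for Pi, 2 to 5 for genotype, 0 to 1 for pre-treatment, 3 to 6 for interactions and 4 to 9 for A against B. The lowest counts were without replicate A2 for Pi, genotype and interactions (7, 2 and 3) and without B1 or B2 for A against B (4 each); genotype also gave 3 without A1 and 4 without B1, pre-treatment 0 without A1 or B1, and A against B 5 without A2. A gene with no value in a fit, because it did not pass the count filter or had no estimate, counts there as not called. Without A2 MYB90 had no value, which takes 2 of the calls lost for Pi, 1 for genotype, 2 for interactions and the 1 for pre-treatment. The SynCom calls at low Pi changed as well. MYB90 in Col-0 was lost without B1 or B2, and EGL3 in phf1 without A1, B1 or B2. MYB75 in phf1 and MYBL2 in Col-0 were gained without A1 or A2. Also gained were MYBL2 in phf1 without A2 and MYB12 in Col-0 without B1. In experiment B alone there were 7 calls for Pi, 1 for genotype, 0 for pre-treatment and 4 for interactions. There MYB90 and 2 comparisons of MYB75 in phf1 without bacteria at low Pi had no value, which takes 3 of the calls lost for Pi, 2 for genotype, 2 for interactions and the 1 for pre-treatment. In A alone there were 4 for pre-treatment and 4 for interactions. Without the experiment term there were 0 for pre-treatment and 4 for interactions, and DESeq2 gave 0 for pre-treatment, as did a fit of the compared genotypes only, where MYB90 had no value. The causes of the other losses were not tested. The fitted value of MYB90 under SynCom in Col-0 at low Pi changed sign to -0.04 in A alone, where it depends on the prior count and the pooled level was higher with SynCom (2.50 CPM) than without bacteria (0.861 CPM). With a replicate block, 6 calls were made for genotype, since EGL3 between phr1 phl1 and Col-0 at high Pi with SynCom was lost (adjusted p = 0.0511), and the block changed no other call. The replicate numbers are not a pairing of samples by the labels. Leaving out the 4 libraries in doubt, or 6 with 2 more chosen after seeing the data, gave 12 and 12 calls for Pi, 6 and 7 for SynCom, 6 and 6 for genotype and 6 and 6 for interactions. For A against B, leaving out the 4 added MYBL2 for the Pi effect in Col-0 without bacteria (-1). Depth limits MYB113, TT8, MYB11 and MYB90 most, where many libraries hold 0 or 1 count.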
